A study of Mus musculus with 4 samples.

Results

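Basement membranes are thin sheets of matrix that lie under endothelium and epithelium and around muscle, fat and nerve sheath cells. Collagen IV forms a covalently cross-linked network, laminins form a second network from trimers of an alpha, a beta and a gamma chain, and nidogens link both networks. In joint tissue such sheets surround blood vessels, and chondrocytes are known to keep some of the same proteins in the matrix next to the cell. The genes described here are 9 of the 24421 rows of the deposited count table, taken by name: the collagen IV chains Col4a1 and Col4a2, the laminin alpha chains Lama4 and Lama5, the beta chains Lamb1 and Lamb2, the gamma chain Lamc1, and the nidogens Nid1 and Nid2. All 9 were listed in the table, and all 9 passed the filter on low counts that left 13103 genes for testing.

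RNA came from the superficial zone of knee articular cartilage over the medial femoral condyle of 2 C57BL/6J mice, named M04 and M05, collected 8 weeks after an operation. Each mouse gave 1 knee with surgical destabilization of the medial meniscus, abbreviated DMM, and 1 sham-operated knee, which made 4 libraries of 1 knee each. Both animals carry the label wild type, but the design text of the series marks the M05 samples as knockout without naming a gene. M05 and M04 are compared here only as 2 animals, and neither age nor sex is stated in the labels used here. With 2 knees per group, the fit leaves 1 residual degree of freedom, and for all of the 9 genes but Col4a1 the p-values rest on the spread of genes of like level, not on the gene's own.

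The libraries held 12712425 to 19336628 counts, of which haemoglobin rows took 25.7% to 35.3%. All 10 chondrocyte markers on the list used here, such as Col2a1 and Acan, were counted in every library. Their summed level was 5350 and 6230 CPM (counts scaled to library size, here with edgeR's TMM factors) in the sham and DMM knees of M04, and 1440 and 4760 CPM in the M05 knees, so the sham library of M05 stood apart with the lowest value. The 15 endothelial markers summed to 519, 491, 412 and 472 CPM in the same order. The 10 skeletal muscle markers summed to 166 and 448 CPM in M04 and to 592 and 185 CPM in M05. The 9 basement membrane genes summed to 185 and 237 CPM in M04 and to 143 and 156 CPM in M05. In such bulk samples, fewer cells of a type and less RNA per cell cannot be told apart.

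Col4a1 and Col4a2 are read from opposite strands out of a common start region, a layout known for this gene pair. A stretch around the Col4a2 start is shown because these genes also had the highest levels of the 9. It was cut to begin at the last CCCTCCCC before that start, so this match is there by choice. In the RefSeq promoter table (GRCm38.p6, whereas the counts were made on GRCm39), the start sites lie 21 bases apart, and the windows of the pair, from 250 bases before to 50 bases after each start, share 78 bases. The 30 bases below lie at chr8:11312792-11312821, with 13 bases before the Col4a2 start and 17 from it on, and end just short of the Col4a1 start. In them, capitals mark the matches to CCCTCCCC and to GGGCGG, a GC box, on either strand.
Col4a2, plus strand: CCCTCCCCtcggcagtgcgcGGGCGGcgtc
Col4a1, minus strand: gacgCCGCCCgcgcactgccgaGGGGAGGG
Of the 9 genes, 6 had a window in that table. On either strand, CCCTCCCC was found for 4 of these 6 genes (Col4a1, Col4a2, Lama5 and Nid1) and in 10.8% of 32544 different windows of all genes. Members were counted per gene, with a match in any window of the gene, and the background per window. GGGCGG was found in 5 of 6 and in 35.9% of all, CCAAT in 4 of 6 and in 37.4%, and TATAAA in 0 of 6 and in 13.6%. As Col4a1 and Col4a2 share part of their windows, their matches are not separate. These letter matches describe the windows and are not binding sites. By these start sites the transcripts overlap over 22 bases, and the counts of both genes were whole in every library. Because the libraries are not stated to keep strand, reads from that overlap cannot be assigned to one of them with certainty.

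Levels were compared between genes on the authors' FPKM scale, which divides by transcript length. Over the 4 libraries the order was Col4a1 (8.36 ± 1.82 FPKM, SD, n = 4), Col4a2 (7.74 ± 2.09), Lamb2 (4.56 ± 1.03), Lamc1 (2.36 ± 0.63), Nid1 (2.12 ± 0.573), Nid2 (1.71 ± 0.692), Lama4 (1.34 ± 0.421), Lamb1 (1.13 ± 0.186) and Lama5 (0.145 ± 0.0611). These SDs include the surgery and the mouse. Of the neighbours in this order, the ranges over libraries did not overlap between Col4a2 and Lamb2, between Lamb2 and Lamc1, and between Lamb1 and Lama5. The other neighbours overlapped in range.

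Collagen IV made up 50.5% and 56.3% of the summed FPKM of the 9 genes in the sham and DMM knees of M04, against 56.2% and 55.8% for M05. The remaining collagen IV genes, Col4a3 to Col4a6, encode chains of the specialised networks of kidney, lung and other organs and contributed little. Summed FPKM was 15.4, 21.8, 13.0 and 14.2 for Col4a1 and Col4a2 alone (sham and DMM of M04, then of M05) and 15.4, 21.9, 13.1 and 14.3 for all 6 chains. Among laminins, the beta chains summed to 4.36 to 6.83 FPKM, the gamma chain Lamc1 stood at 1.78 to 3.16 FPKM, and the alpha chains Lama4 and Lama5 together reached 1.17 to 2.11 FPKM. With Lama1, Lama2 and Lama3 added, the alpha sum was 1.21 to 2.43 FPKM. The alpha transcripts were thus the scarcest class of laminin chain in each library on this scale.

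**Figure D1:**
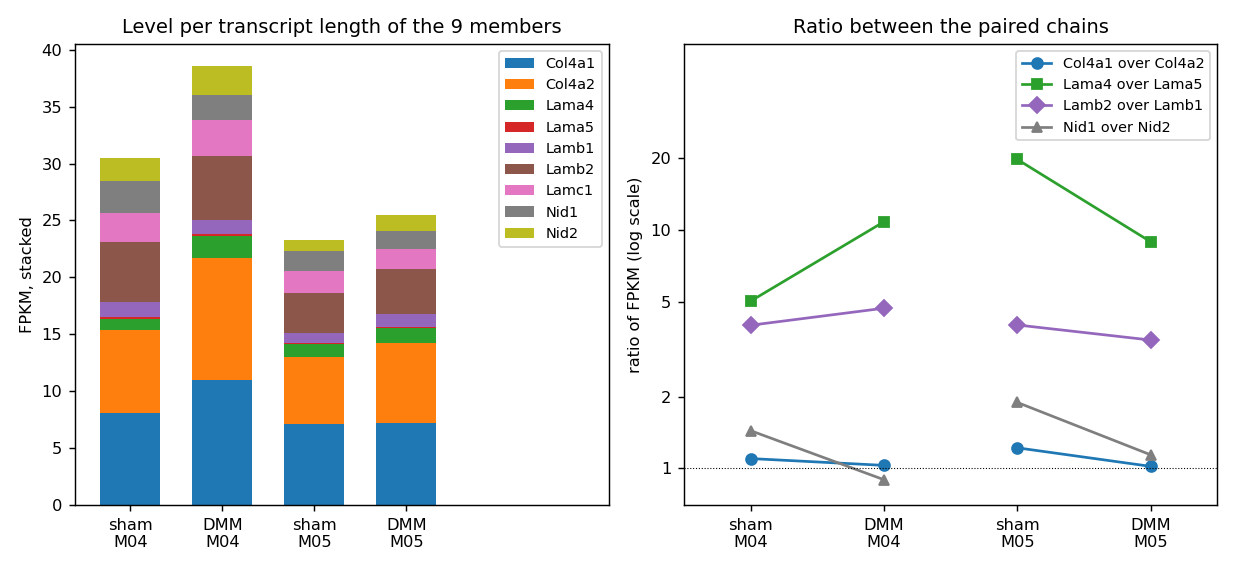
Left, stacked bars of FPKM of the 9 genes in the 4 libraries, with Col4a1 and Col4a2 as the lowest 2 segments. Right, FPKM ratios on a log scale between chains of one kind, joined within a mouse: Nid1 over Nid2 was lower in the DMM knee of both mice (0.897 and 1.14) than in the sham knee (1.44 and 1.89), while Lama4 over Lama5 was higher in the DMM knee of M04 (10.8 against 5.02) and lower in that of M05 (8.90 against 19.7).

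The question for the surgery was which of these genes differ between DMM and sham knees. None of the 9 passed an adjusted p of 0.05 in edgeR's quasi-likelihood test with the mouse as a block, against a background of 0.633% of the 13103 genes called higher and 0.0153% called lower. The unadjusted p was under 0.05 for 2 of the 9, Col4a2 and Lama4, as for 5.2% of all genes. Fitted fold changes were positive for 8 of the 9 and for 47.9% of all genes. Their median was 0.23 on the log2 scale, from -0.25 for Nid1 to 0.61 for Lama4, and the median over all genes was -0.01. Within each mouse, the log2 ratio of DMM to sham was positive for 6 of the 9, with a median of 0.33 in M04 and 0.2 in M05. The count of positive fitted values moved when single libraries were left out. The mouse was not a block in those fits, and the lower levels in M05 could therefore enter their surgery effect. Without the sham library of M05, 4 of the 9 were positive with a median of -0.03, and without the DMM library of M04, 5 of the 9 with a median of 0.05. Without the sham library of M04 all 9 were positive (median 0.45), and without the DMM library of M05 there were 8 (median 0.54). Both DMM libraries lay above both sham libraries for 1 of the 9, Lama4, against 13.2% of all genes.

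The collagen IV chains had the most counts, between 528 and 1057 per library, and so the narrowest intervals. Col4a1 stood at 51.3 CPM in the sham and 70.7 CPM in the DMM knee of M04, and at 45.9 and 45.7 CPM in those of M05. Only the DMM knee of M04 stood apart, and the groups overlapped. The log2 ratio of DMM to sham was 0.46 in M04 (exact 95% counting interval 0.32 to 0.60) and -0.01 in M05 (-0.17 to 0.15). These intervals cover counting error only, not differences between animals or dissections. The fitted log2 fold change was 0.23 (SE 0.16, edgeR adjusted p = 1.0).

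Col4a2 stood at 45.1 and 66.8 CPM in the sham and DMM knees of M04 and at 36.6 and 43.4 CPM in those of M05. The DMM knee was the higher one in each mouse, although the DMM knee of M05 lay below the sham knee of M04. Its log2 ratio was 0.57 in M04 (0.42 to 0.71) and 0.24 in M05 (0.07 to 0.41), and both counting intervals lay above 0. The fitted log2 fold change was 0.41 (SE 0.17, unadjusted p = 0.0141, edgeR adjusted p = 0.595).

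The chains had nearly equal levels per length in every library. Col4a1 over Col4a2 was 1.10 and 1.03 in FPKM in the sham and DMM knees of M04, against 1.22 and 1.02 for M05. On counts, the log2 change of this ratio from sham to DMM was -0.10 in M04 (-0.31 to 0.10) and -0.25 in M05 (-0.49 to -0.02).

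**Figure D2:**
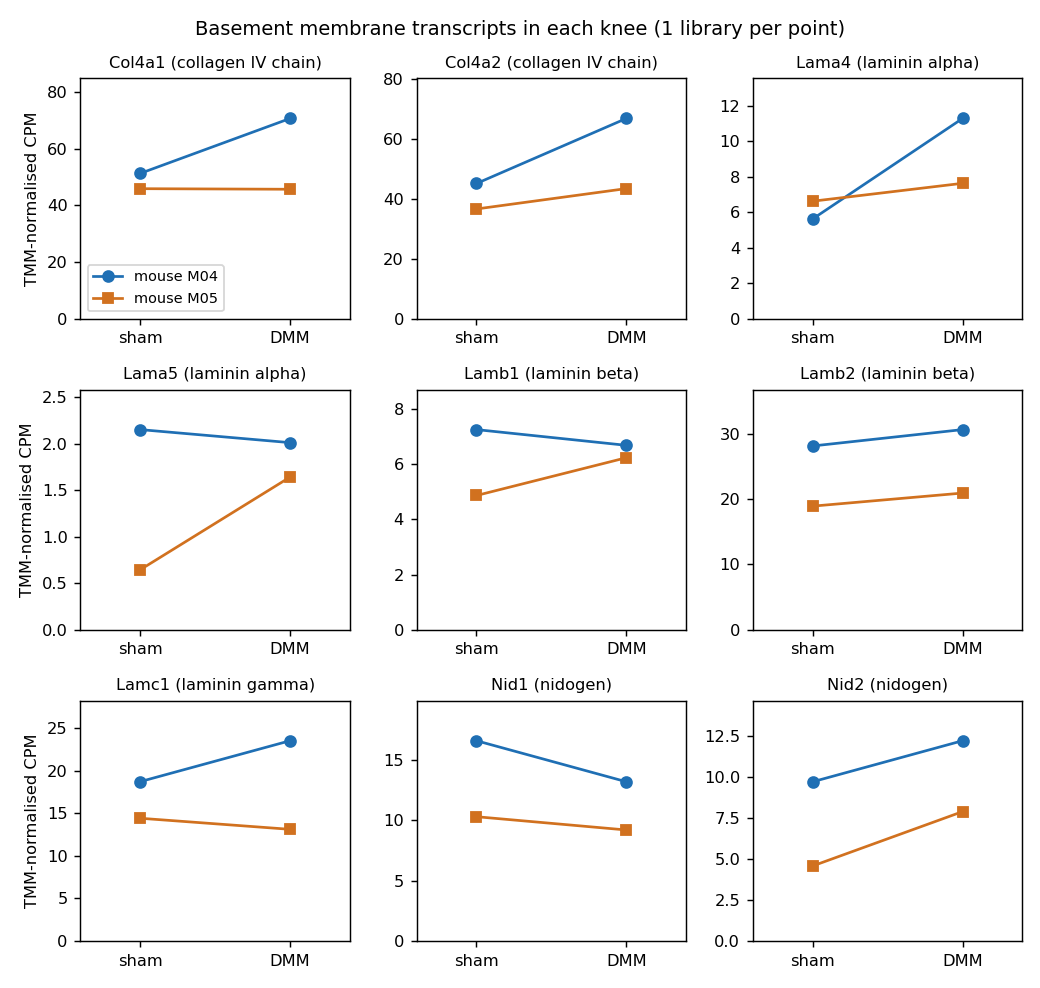
TMM-normalised CPM of each of the 9 genes in sham and DMM knees, 1 point per library, with lines joining the knees of a mouse (circles M04, squares M05) and a separate linear axis from 0 in each panel. Lama4 is the gene whose DMM values (11.3 and 7.64 CPM) both exceed its sham values, as for 13.2% of all genes tested. In 8 of the 9 panels both M05 points lie below both M04 points, against 22.8% of all genes tested.

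Lama4, an alpha chain of vessel basement membranes, was at 5.63 and 11.3 CPM in the sham and DMM knees of M04 and at 6.63 and 7.64 CPM in those of M05. The groups did not overlap, but the DMM value of M05 exceeded its sham value by little. The log2 ratio was 1.01 in M04 (0.61 to 1.42) and 0.20 in M05 (-0.21 to 0.61), and the fit gave 0.61 (SE 0.31, unadjusted p = 0.0499, edgeR adjusted p = 0.96). Skeletal muscle markers were also higher in the DMM knee of M04, with a log2 ratio of 1.43 for their sum, but one of -1.68 within M05, and their part in the Lama4 values was not tested.

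Lama5, an alpha chain of epithelial and mature vessel basement membranes, was the scarcest of the 9, with 29 and 30 counts in the sham and DMM libraries of M04, against 11 and 20 for M05. These are 2.15, 2.01, 0.645 and 1.64 CPM, with the sham knee of M05 lowest. Ratios were -0.10 in M04 (-0.88 to 0.69) and 1.35 in M05 (0.22 to 2.56), and the fitted value of 0.56 had an SE of 0.69 (edgeR adjusted p = 1.0). The M04 interval included 0, and a difference within its range could not be told apart from counting error.

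The beta and gamma chains had fitted fold changes close to 0. Lamb1 was at 7.26 and 6.69 CPM in M04 and at 4.87 and 6.24 CPM in M05, sham before DMM. Lamb2, the beta chain of vessel, nerve-muscle junction and kidney basement membranes, was at 28.1 and 30.6 CPM in M04 and at 18.9 and 20.9 CPM in M05. Within a mouse its knees were close, with log2 ratios of 0.12 (-0.08 to 0.32) and 0.15 (-0.09 to 0.39). Lamc1, the gamma chain shared by most laminins, was at 18.7 and 23.5 CPM in M04 and at 14.4 and 13.1 CPM in M05, with ratios of 0.33 (0.09 to 0.57) and -0.14 (-0.44 to 0.15). For Lamb1, Lamb2 and Lamc1 the fitted fold changes were 0.11, 0.13 and 0.10 (SE 0.34, 0.19 and 0.22), each with an edgeR adjusted p = 1.0.

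The nidogens had fold changes of opposite sign, neither past the threshold. Nid1 was at 16.6 and 13.2 CPM in the sham and DMM knees of M04 and at 10.3 and 9.2 CPM in those of M05. It was the only one of the 9 with a negative fitted fold change, -0.25 (SE 0.25, edgeR adjusted p = 1.0). Nid2 was at 9.7 and 12.2 CPM in M04 and at 4.57 and 7.88 CPM in M05. Its DMM knee was the higher one in each mouse, and the fitted fold change was 0.54 (SE 0.30, unadjusted p = 0.0665, edgeR adjusted p = 1.0).

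In FPKM, Nid1 over Nid2 went from 1.44 in the sham to 0.897 in the DMM knee of M04 and from 1.89 to 1.14 in M05. On that scale the log2 change of the ratio was -0.68 in M04 and -0.74 in M05. On counts it was -0.66 in M04 (-1.10 to -0.22) and -0.94 in M05 (-1.52 to -0.37), and both counting intervals lay below 0. This pair was singled out after its values were seen, and it was not tested across animals. The Nid2 row overlaps a neighbouring gene listed as 2700060E02Rik and held values that were not whole in 3 of the 4 libraries, so part of its counts may be shared with another row.

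**Figure D3:**
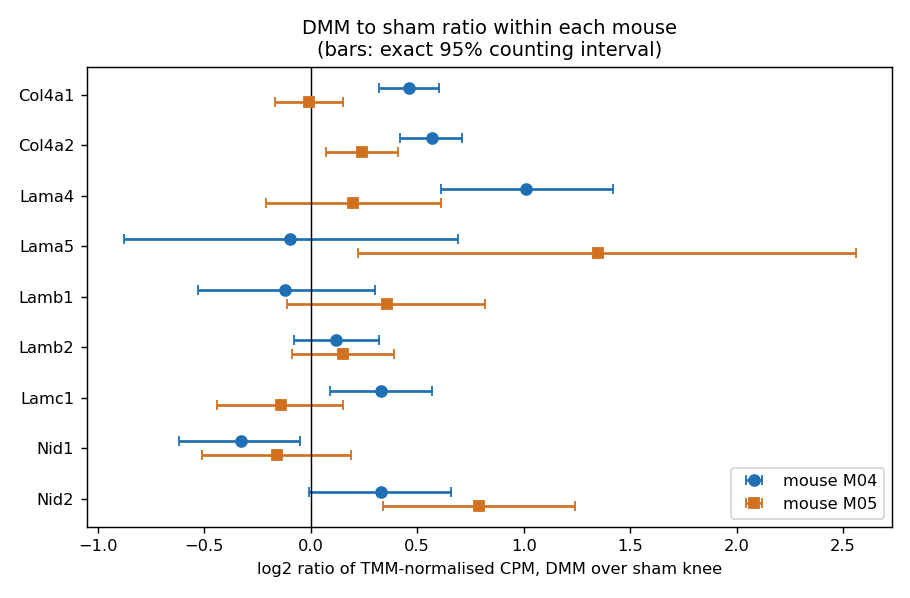
Log2 ratio of DMM to sham CPM for each gene within M04 (circles) and M05 (squares), with exact 95% counting intervals as bars. Col4a2 is the gene with both intervals above 0, and Col4a1 stands at 0.46 for M04 and at -0.01 for M05.

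Whether the mice responded alike was tested by pairing M04's DMM library with M05's sham library and setting both against the remaining pair, which leaves 2 residual degrees of freedom in edgeR. This fit has no term for the mouse or the surgery, so any effect of either enters its error, and a difference in response can be missed. None of the 9 passed, each with an adjusted p = 1.0 and an unadjusted p of at least 0.238, against a background of 0.0153% of genes called. The ratio had the same sign in both mice for Col4a2, Lama4, Lamb2, Nid1 and Nid2. It was above 0 in both mice for 4 of the 9 and for 23.2% of all genes.

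Between the animals, all 9 genes had a lower fitted level in M05 than in M04, as did 50.9% of all genes. Their median log2 fold change was -0.56, from -0.97 for Lama5 to -0.18 for Lama4, and the median over all genes was -0.01. Each side of this comparison is a single animal whose knees serve as replicates. The p-values for M05 against M04, here and below, therefore do not cover the spread between animals. None passed an adjusted p of 0.05, against a background of 1.64% called lower and 0.962% called higher. The unadjusted p was under 0.05 for 6 of the 9 (Col4a1, Col4a2, Lamb2, Lamc1, Nid1 and Nid2), as for 7.57% of all genes in the direction of lower values. Both M05 libraries lay below both M04 libraries for 8 of the 9, all but Lama4, against 22.8% of all genes.

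The smallest adjusted p of the 9 belonged to Lamb2, at -0.56 (SE 0.19, edgeR adjusted p = 0.0874). Next came Nid2 at -0.85 (SE 0.30, adjusted p = 0.0983) and Lamc1 at -0.61 (SE 0.22, adjusted p = 0.108). For Lamb2 the M05 to M04 log2 ratio was alike in the knees, -0.58 between the sham libraries (-0.79 to -0.36) and -0.55 between the DMM libraries (-0.77 to -0.32). For Col4a1 it was -0.16 (-0.31 to -0.01) between sham and -0.63 (-0.78 to -0.48) between DMM libraries. For Lama4 the sham libraries gave 0.24 (-0.20 to 0.67) and the DMM libraries -0.57 (-0.95 to -0.19).

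Other basement membrane genes were followed through lists. Of 26 further chains, proteoglycans and associated proteins, 14 passed the filter. The calcium-binding matrix protein gene Smoc2 was the only one of the 14 to pass as higher in DMM knees, and none passed as lower. It stood at 31.0 and 51.4 CPM in the sham and DMM knees of M04 and at 15.6 and 33.9 CPM in those of M05, and the log2 fold change was 0.92 (SE 0.18, edgeR adjusted p = 0.000164). The call was lost without the DMM library of M04 (0.55), without that of M05 (1.14) and without the sham library of M05 (0.46), in fits that have no mouse term. Without the sham library of M04 it was kept, at 1.45. It was also lost in DESeq2 (adjusted p = 0.334), with no replicate block (1.0) and in limma on FPKM (0.624 and 0.793). Col18a1 and Col15a1, collagens of vessel basement membranes, had fold changes of 0.86 (adjusted p = 0.547) and 0.85 (adjusted p = 0.211). Hspg2, which encodes the proteoglycan perlecan, had one of 0.30 (adjusted p = 1.0). The median over the 14 was 0.27, with 11 positive.

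Against M04, 3 of the 14 were lower in M05 and none was higher, with a median of -0.63 and 14 of 14 negative. Hspg2 stood at 78.6 and 71.5 CPM in M04 and at 24.9 and 42.3 CPM in M05 (log2 fold change -1.20, SE 0.16, edgeR adjusted p = 1.36e-09). Perlecan is also made by chondrocytes. The other two were Smoc2 (-0.79, adjusted p = 0.00171) and Col15a1 (-0.95, adjusted p = 0.0291). The Hspg2 call was lost when either M04 library was left out (-1.08 without sham, -1.24 without DMM), and kept without the sham (-0.83) or the DMM library (-1.59) of M05. It was also lost in edgeR with no surgery term (adjusted p = 0.0975) and in limma (0.467 and 0.499). Smoc2 and Col15a1 passed in 1 of these 4 fits, the one without the DMM library of M05 (-1.40 and -1.55). Without the sham library of M05 they stood at -0.28 and -0.44, and without the DMM library of M04 at -0.34 and -0.57. Without the sham library of M04 they stood at -1.05 and -1.17. Of 8 other settings, Smoc2 kept its call in 5 and Col15a1 in 3. Both were lost with no surgery term and in limma on FPKM. Col15a1 was also lost in edgeR with RLE factors (adjusted p = 0.0574) and without haemoglobin rows (0.0892).

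None of 12 genes for the folding, cross-linking and export of collagens passed between DMM and sham knees. Their median fold change was 0.24, and 11 of the 12 were positive. The nearest was the lysyl hydroxylase Plod2 at 0.71 (SE 0.21, edgeR adjusted p = 0.0834). Pxdn, the peroxidase that cross-links collagen IV, had a fold change of 0.11. In M05 against M04 the median was -0.31 with 11 of 12 negative, and the lysyl oxidase family gene Loxl2 was lower (-0.72, adjusted p = 0.0215). That call was lost in all 4 fits without 1 library (-1.09 to -0.35). Of 13 receptor genes none passed between DMM and sham knees, and their median was 0.03. In M05 against M04 their median was -0.55 with 12 of 13 negative, and the collagen receptor gene Ddr2 (-1.36, adjusted p = 6.48e-05) and the syndecan gene Sdc4 (-0.94, adjusted p = 0.00106) were lower. Leaving out 1 library at a time, Ddr2 kept its call in 1 of 4 fits, the one without the DMM library of M05 (-1.49 to -1.22 over the 4), and Sdc4 in 0 of 4 (-1.18 to -0.69). The calls of Loxl2, Ddr2 and Sdc4 were also lost with no surgery term and in limma on FPKM. Itgb1, the beta subunit common to most laminin and collagen receptors, had 140 and 140 CPM in M04 and 136 and 116 CPM in M05.

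Marker lists of cells that make basement membrane stood beside these values as follows. None of the 15 endothelial markers passed between DMM and sham knees, with a median of 0.03. In M05 against M04 their median was -0.14, with 11 negative and 4 positive. Of the 15, 2 were lower in M05, the adhesion molecule Cdh5 (-0.99) and the VEGF receptor Kdr (-0.92). Without single libraries neither passed, at -1.10 to -0.89 and -1.11 to -0.75. The 10 mural cell markers, genes of pericytes and smooth muscle, had a median of 0.14 for the surgery, with 7 positive and 3 negative. In M05 against M04 their median was -0.38, with 8 negative and 2 positive. Of the 10, 1 was higher in DMM knees, the proteoglycan gene Cspg4 (0.83, SE 0.23, edgeR adjusted p = 0.0415). Cspg4 fell to 0.12 without the sham library of M05 and was lower in M05 (-1.02). Of its leave-one-out fits in each comparison, 1 of 4 kept the call, over 0.12 to 1.66 for the surgery (kept without the sham library of M04) and -1.73 to -0.38 for the mouse (kept without the DMM library of M05). Its surgery call was kept in 2 of the other 9 settings and lost, among others, with RLE factors (adjusted p = 0.177) and in DESeq2 (1.0). The calls of Cdh5, Kdr and Cspg4 between the mice were lost with no surgery term and in limma on FPKM. That of Cspg4 for the surgery was lost with no mouse term and in limma on FPKM. Of 10 chondrocyte markers, 6 were higher in DMM knees and 8 were lower in M05, with medians of 0.98 and -0.90. These chondrocyte calls were likewise all lost in limma on FPKM. They were also lost with no mouse term for the surgery and with no surgery term for the mouse.

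None of the markers of endothelium, mural cells, chondrocytes and skeletal muscle was at 0 in any library. The sum of the chondrocyte markers had log2 ratios of DMM to sham of 0.22 in M04 and 1.72 in M05. That of the 9 basement membrane genes had 0.36 and 0.12. Mural cell markers had 0.30 and 0.13 in the same order, and endothelial markers -0.08 and 0.20. Adipocyte markers had 0.73 and 0.01, and nerve sheath markers -0.14 and -0.0. The part of these cell types in the levels of the 9 genes was not tested. Of the other lists, 5 of 7 adipocyte markers were tested with 0 called for the surgery (median 0.35), 5 of 6 nerve sheath markers with 0 called (median -0.11), and all 7 erythroid markers with 0 called (median -0.32). In M05 against M04 their medians were -0.99, -0.13 and 0.41. All 5 adipocyte markers tested were negative there, and Cfd was called lower (-0.92, edgeR adjusted p = 2.94e-05). That call was lost with no surgery term and in limma on FPKM.

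**Figure D4:**
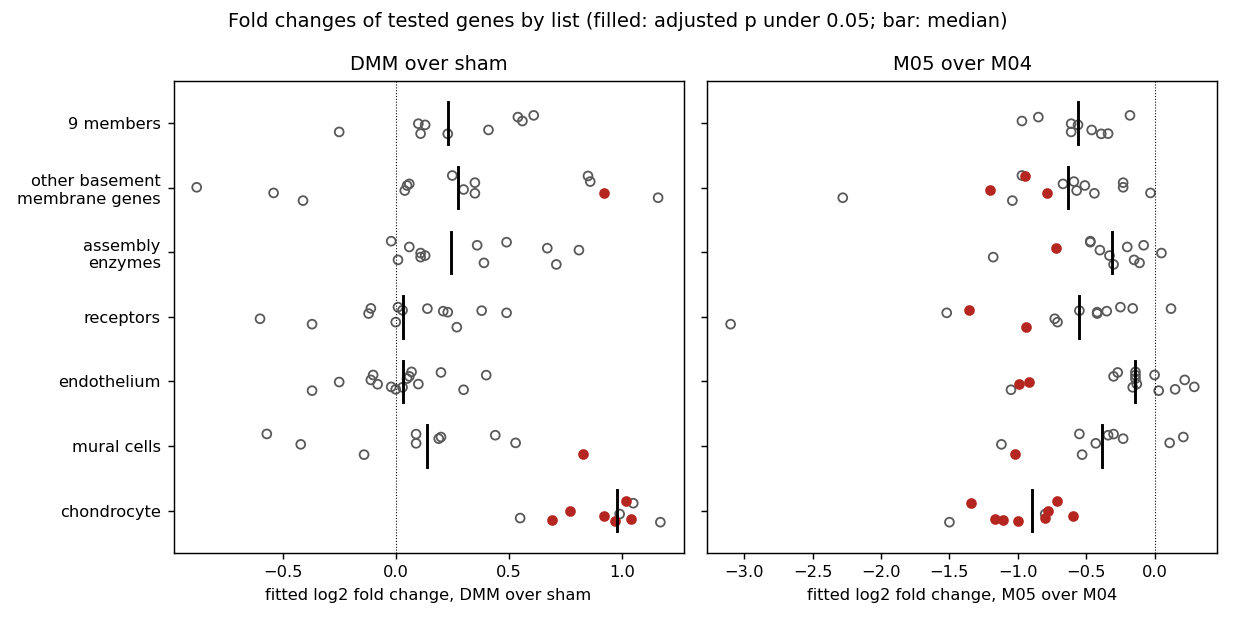
Fitted log2 fold changes of tested genes in 7 lists, DMM over sham on the left and M05 over M04 on the right, with filled points for an adjusted p under 0.05 and a bar at each median. The 9 basement membrane genes hold no filled point and have medians of 0.23 and -0.56, while the chondrocyte markers have medians of 0.98 and -0.90.

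Among the 7309 named genes that averaged 10 CPM or more, the profile over the 4 libraries most like the mean of the 9 genes was that of Nol9, then Timp3, Zc3h13, Ctdspl and Jade2. Likeness was the root mean square difference of centred log2 CPM, which was 0.021 for Nol9 and 0.040 for Jade2, and 57 genes lay within 0.1. Timp3, an inhibitor of metalloproteases that binds to matrix, had 93.5 and 110 CPM in the sham and DMM knees of M04 and 61.6 and 73.6 CPM in those of M05. With 4 libraries such likeness is a description. The 9 genes themselves lay between 0.068 (Lamb2) and 0.39 (Lama5) from their mean profile, the latter on 11 to 30 counts per library.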

How the data were processed

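Per the labels' protocols, poly(A) RNA was sequenced as single-end Illumina reads. The submitters' processing notes name GRCm39 (mm39). For the aligner and the counter, the tools are not given in the sources used. The deposited estimated counts per gene were not scaled, and 9.21% to 10.9% of the values were not whole. Each library is listed in 2 columns with all 24421 values equal, and was counted once. The deposited FPKM values were made by the authors and are scaled for length and depth.

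Estimated counts were rounded and tested with edgeR 4.0.16 (R 4.3.3): filterByExpr, TMM, and a robust quasi-likelihood fit with mouse and surgery as terms. P-values were adjusted by Benjamini-Hochberg over the 13103 genes tested. The labels state that the knees of a number are of the same animal, which makes the mouse a block, and same-mouse deviations had a correlation of 0.13 across genes. This model has 1 residual degree of freedom. For 10879 genes (83%), among them all members but Col4a1, the prior degrees of freedom were infinite, so their p-values rest on the trend across genes. The SE is the absolute log2 fold change over the square root of F. Counting intervals are exact 95% intervals, Clopper-Pearson for a ratio of 2 counts and a conditional odds ratio for 4. Alternatives used DESeq2 1.42.0, limma 3.58.1 on log2(FPKM + 0.1) or log2(FPKM + 1) for genes with a mean of at least 0.1 FPKM, RLE factors, other filters, a fit without the 10 haemoglobin rows and fits without single libraries.

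The members and the lists were chosen with earlier results of these data known. All members are named. From each list, genes past the threshold between DMM and sham knees could be named, else the 4 with the highest mean CPM, and the other list genes named, and the pair Nid1 and Nid2, were picked after their values were seen. The free text of both sham samples speaks of a DMM knee, and their titles and treatment field were followed.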

Additional observations from a re-analysis of the deposited data

Results flagged for a closer look

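The ratio of Lama4 to Lama5 changed, on counts, in opposite directions in the mice, by 1.10 on the log2 scale in M04 (exact 95% counting interval 0.21 to 1.99) and by -1.14 in M05 (-2.42 to 0.08), a difference of 2.24. The Lama5 counts behind it were 11 to 30 per library. Lamb2 over Lamb1 changed by 0.24 in M04 (-0.23 to 0.70) and by -0.21 in M05 (-0.74 to 0.32), a difference of 0.45, with both intervals including 0. Neither difference between the mice was tested.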

How the results depend on the processing

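None of the 9 genes passed in any alternative, for the surgery or the mouse. The number with an unadjusted p under 0.05 ranged from 0 to 2 for DMM against sham and from 2 to 6 for M05 against M04, over edgeR, DESeq2 and limma. Of 116 fold changes refitted for the surgery, 108 kept their sign, as did 108 of 109 for the mouse (DESeq2 gave no adjusted p there for 7 of the 9). All 8 sign changes for the surgery came from fits without 1 library, which have no mouse term. There the range was -0.09 to 0.54 for Col4a1, -0.23 to 1.49 for Lama5, -0.17 to 0.41 for Lamb1, -0.16 to 0.45 for Lamb2, -0.34 to 0.50 for Lamc1 and -0.57 to 0.13 for Nid1. Col4a2 (0.09 to 0.71), Lama4 (0.32 to 0.88) and Nid2 (0.05 to 1.13) kept theirs. The sign change for the mouse was Lama4, with -0.65 to 0.33. All 54 refitted ratios within a mouse stayed inside their counting intervals. RLE factors and the fit without haemoglobin rows moved no median of all genes by over 0.1.

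Over all genes, the calls for the surgery (85 in all) became 0 with no replicate block for the mouse, 11 with DESeq2, 35 with RLE factors, 23 without haemoglobin rows and 1 with limma at either pseudocount, and ran from 0 to 121 without single libraries (0 without M04's DMM library, 1 without M05's sham and 4 without M05's DMM library, 121 without M04's sham library). Those for the mouse (341) became 0 with no replicate block, 69, 186, 103 and 0 in the same order, and ran from 0 to 331 without single libraries. Calls for a difference in response (2) became 24 with no filter, 0 at a mean of at least 5 CPM, 0 without robust moderation and 5 with limma on log2(FPKM + 0.1). The cause was not tested. Depth limits Lama5 most, with 11 to 30 counts per library.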
